A study of Homo sapiens with 6 samples.

Results

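The intermediate filament and lamin genes described here are the simple keratins KRT7, KRT8, KRT18 and KRT19, the cytoplasmic filament genes VIM, NES and DES, and the nuclear lamin genes LMNA, LMNB1 and LMNB2. These 10 genes were taken from a list of symbols, out of 19775 genes that had a probe set of their own in the table. Every probe set annotated to 1 of these symbols only was used, which gave 22 of 54613 probe sets. Mesodermal progenitors were compared with undifferentiated hESC, 3 arrays each. Both groups came from H9, a long-established human embryonic stem cell (hESC) line. The progenitors were induced with the growth factors activin A, BMP4, VEGF and FGF2 in Stemline II and sorted at day 3.5 as cells without CD326 (EPCAM) and with CD56 (NCAM1), whereas the hESC were not differentiated. A single cell line was used, and no unsorted day 3.5 cells are among the arrays, so that the sort and the differentiation cannot be told apart.

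Intermediate filaments are rope-like polymers of coiled-coil proteins. Simple epithelial keratins pair a type II chain (KRT7, KRT8) with a type I chain (KRT18, KRT19). Vimentin is the filament protein of mesenchymal cells, nestin joins vimentin filaments in progenitor cells, and desmin marks muscle. Lamins line the inner nuclear membrane. LMNA gives the A-type lamins through alternative splicing, while LMNB1 and LMNB2 each encode a B-type lamin.

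Of the 22 probe sets 16 rose in the progenitors, none fell and 6 did not pass the test, with limma and Benjamini-Hochberg adjustment over all probe sets at an adjusted p under 0.05. Among all probe sets tested, 20.3% were called higher and 20% lower (40.2% in either direction). Calls of higher made up 50.4% of all calls, against 76.3% with arrays scaled on their hybridization controls. The count of 0 lower compares with 1 of the 22 at an unadjusted p under 0.05 and a negative change. The median log2 change of the 22 was 0.76, against 0.01 over all probe sets tested. At the brightest probe set of each gene, 8 of the 10 genes rose, where 25.3% of all genes did at theirs. DES and LMNB2 did not pass at theirs. The progenitor arrays lay above all hESC arrays in 17 of the 22 probe sets, which holds for 26.1% of all probe sets, and below them in 1, which holds for 25.1%. All changes are differences of log2(intensity + 16) after quantile normalization, progenitor minus hESC, and understate the change of dim probe sets. Lower RNA per cell and fewer cells that express a gene cannot be told apart in such bulk samples.

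**Figure D1:**
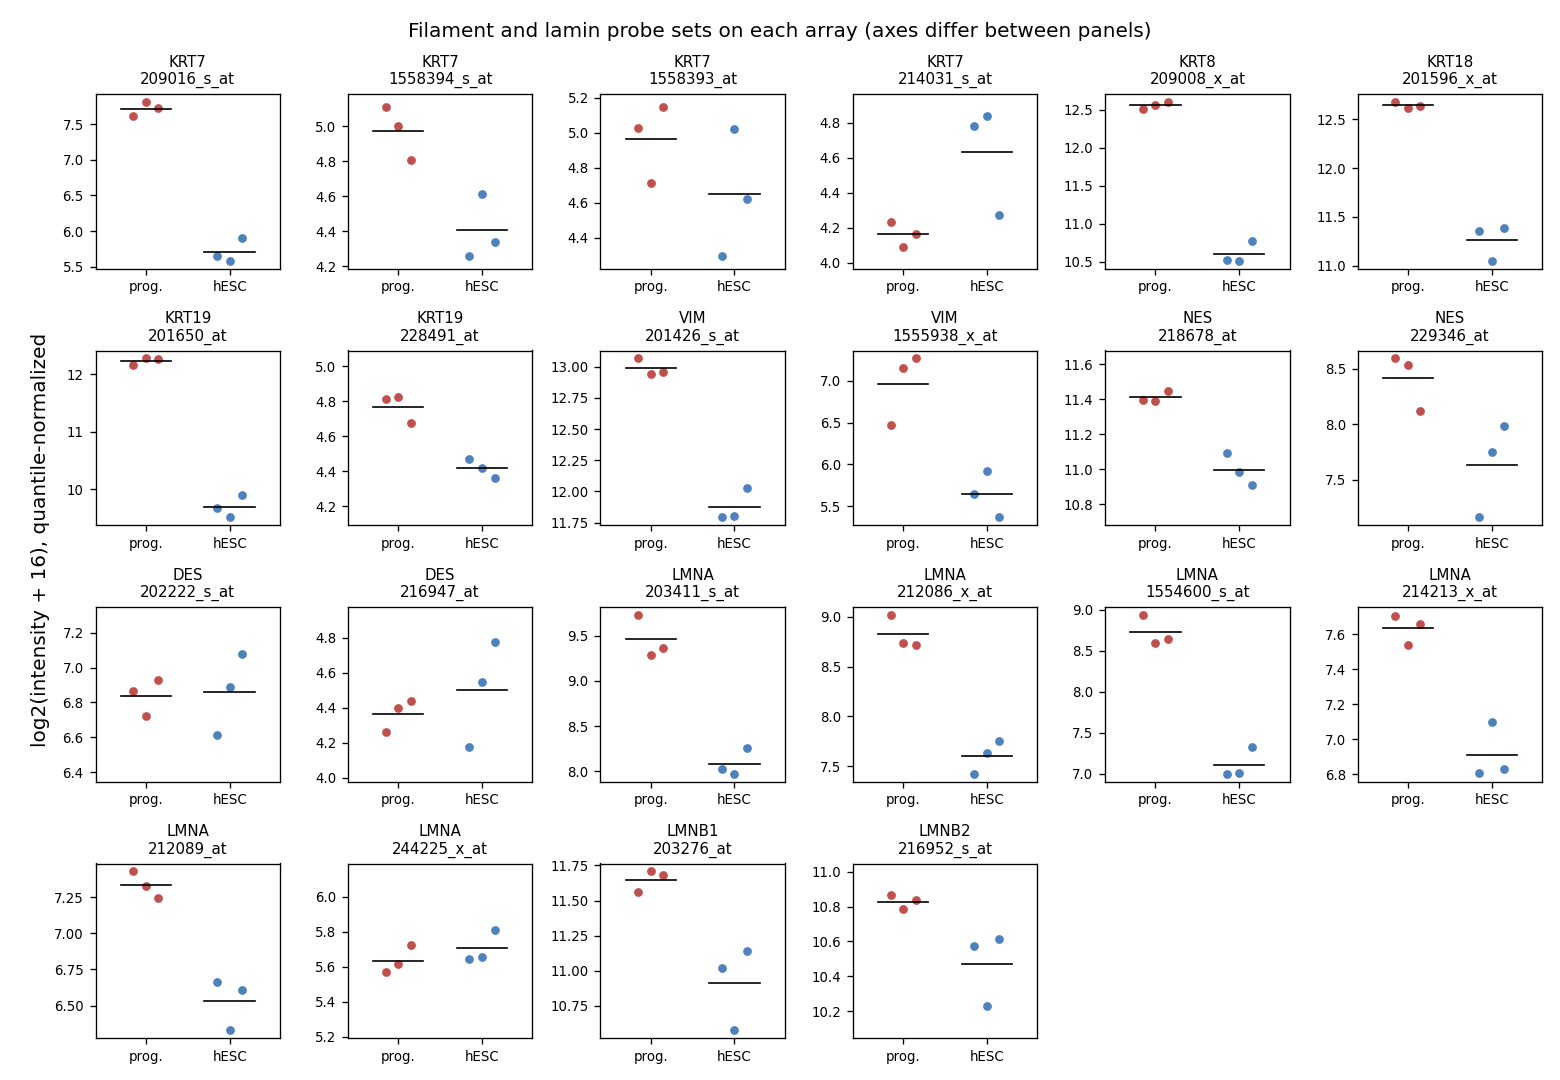
Level of each of the 22 filament and lamin probe sets on each array, as log2(intensity + 16) after quantile normalization (red, 3 progenitor arrays; blue, 3 hESC arrays; lines, means; the vertical axes differ between panels). In 17 panels every progenitor array lies above every hESC array, and DES shows overlap in both of its panels.

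The labels were checked against defining markers. NANOG averaged 133 in progenitors and 2732 in hESC (deposited intensity), and the sort antigen EPCAM averaged 636 in progenitors and 3348 in hESC. The streak and mesoderm markers TBXT, MESP1 and PDGFRA averaged 299, 1112 and 1818 in progenitors, against 20.6, 15.5 and 87.3 in hESC. Pearson's r between arrays within a group, taken over genes as a description, was 0.991 to 0.997 and was highest between progenitor arrays 2 and 3. Progenitor array 1 stood apart in endothelial markers: the summed intensity of the 10 listed genes was 5446 on it, against 1639 and 1775 on progenitor arrays 2 and 3, and 805 to 902 on the hESC arrays. Nothing in the labels tells whether the arrays of a group hold separate cultures, so each p-value reflects array-to-array spread that may be technical.

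RefSeq promoter windows, which hold 250 bases before and 50 after a transcript start in the GRCh38.p14 build, matched 6 of the 10 genes (KRT8, VIM, NES, LMNA, LMNB1 and LMNB2) with 9 windows. Windows of 4 members that rose are shown, since they differ in base composition, 5′ to 3′ on the coding strand. Capitals mark matches, on either strand, to the GC box GGGCGG, or in KRT8 to GGAATG, a TEAD-type motif, and none of these matches overlap.
KRT8, chr12:52926420-52926719, minus strand: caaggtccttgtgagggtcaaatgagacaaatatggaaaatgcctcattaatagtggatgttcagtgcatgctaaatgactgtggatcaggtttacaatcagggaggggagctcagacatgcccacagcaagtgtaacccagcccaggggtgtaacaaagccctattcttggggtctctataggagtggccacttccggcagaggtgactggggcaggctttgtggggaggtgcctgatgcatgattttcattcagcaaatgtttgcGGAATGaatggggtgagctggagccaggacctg
VIM, chr10:17227991-17228290, plus strand: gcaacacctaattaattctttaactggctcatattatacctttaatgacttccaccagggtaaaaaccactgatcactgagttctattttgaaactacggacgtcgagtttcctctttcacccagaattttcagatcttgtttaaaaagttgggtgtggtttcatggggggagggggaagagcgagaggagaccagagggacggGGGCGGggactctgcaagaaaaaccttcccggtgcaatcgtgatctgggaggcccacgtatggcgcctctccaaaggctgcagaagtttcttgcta
LMNA, chr1:156082631-156082930, plus strand: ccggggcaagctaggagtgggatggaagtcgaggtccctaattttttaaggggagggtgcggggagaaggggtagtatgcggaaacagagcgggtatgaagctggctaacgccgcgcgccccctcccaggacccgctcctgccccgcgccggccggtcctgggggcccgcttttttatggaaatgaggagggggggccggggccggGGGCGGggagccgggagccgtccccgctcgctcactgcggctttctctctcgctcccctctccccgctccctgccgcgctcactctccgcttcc
LMNB1, chr5:126776886-126777185, plus strand: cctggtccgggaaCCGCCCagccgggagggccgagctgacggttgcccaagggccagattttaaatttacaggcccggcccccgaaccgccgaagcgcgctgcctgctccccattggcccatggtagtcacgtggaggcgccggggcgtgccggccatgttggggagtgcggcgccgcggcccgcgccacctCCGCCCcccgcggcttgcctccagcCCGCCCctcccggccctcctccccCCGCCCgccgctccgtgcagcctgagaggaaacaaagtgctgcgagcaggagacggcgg
The G and C content was 50.7% for KRT8 and 48.0% for VIM, against 69.0% for this LMNA window and 73.7% for this LMNB1 window, and the median over all 35116 windows was 58.7%. The other LMNB1 window, not shown, had 52% and no GC box. The GC box occurred in 7 of the 9 member windows and in 45.0% of all windows, with 4 matches in the LMNB1 window shown and 1 each in those of VIM and LMNA. The TEAD-type motif occurred in 1 of the 9 windows and in 14% of all windows. The E-box CACCTG, which SNAI and ZEB factors bind, was found in another LMNA window and in 20.6% of all windows. The GATA-type motif AGATAA was found in the NES window and in 10.3% of all windows. TATAAA and the AP-1-type motif TGANTCA occurred in none of the 9, and in 11.5% and 7.71% of all windows. These matches describe the letters in the windows and were not tested as binding sites.

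KRT19, KRT7 and KRT8 had the largest increases of the 10 genes at their brightest probe sets, and KRT18 rose about as much as LMNA. On the mean of all probe sets of a gene the change was 0.60 for KRT7 and 1.45 for KRT19. KRT7 then lay below LMNB1 (0.74), and KRT19 below KRT8 (1.95), which has 1 probe set. KRT19, a type I keratin without the usual tail domain, had 4546, 4908 and 4919 (deposited intensity) on the progenitor arrays, against 813, 732 and 943 on the hESC arrays. All progenitor arrays were far above the hESC arrays, and the log2 change at this probe set, 201650_at, was 2.54 (SE 0.12, n = 3 per group, limma adjusted p = 8e-06). KRT8, the type II partner, had 5755, 6039 and 6226 in progenitors and 1515, 1515 and 1712 in hESC, a log2 change of 1.95 (SE 0.10). KRT18, the type I keratin that usually pairs with KRT8, had 6561, 6272 and 6408 in progenitors and 2686, 2228 and 2690 in hESC, a log2 change of 1.38 (SE 0.11). Each of these genes was already bright on the hESC arrays. KRT8 and KRT18 are neighbours among the protein-coding genes of chromosome 12. The probe sets of both end in _x_at, which marks probes that can match other transcripts, and both genes have many processed pseudogenes, so that their values are uncertain in that respect.

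KRT7, a type II keratin of glandular and placental epithelia, was read by 4 probe sets that did not move alike. At 209016_s_at it had 186, 212 and 197 in progenitors, against 36.4, 35.0 and 44.0 in hESC, with a log2 change of 2.01 (SE 0.12). The groups were widely apart there. The other KRT7 probe sets never exceeded 18.4 on any array. Of these, 1558394_s_at rose by 0.57 (SE 0.13), and 1558393_at differed by 0.31 (SE 0.20) with overlapping groups. The third, 214031_s_at, had 2.81, 1.01 and 1.78 in progenitors and 12.2, 13.9 and 3.38 in hESC. It was the probe set of the 22 with progenitor arrays below all hESC arrays, and its log2 difference of -0.47 (SE 0.16) did not pass (limma adjusted p = 0.0516). The call at 214031_s_at turned on hESC array 3, without which the change was -0.65 (adjusted p = 0.00273). The second KRT19 probe set, 228491_at, was also dim, at 8.92 to 11.7 in progenitors and 4.56 to 6.39 in hESC, and rose by 0.35 (SE 0.09). Leaving out progenitor array 2 ended its call (0.33, adjusted p = 0.0673), as did a pseudocount of 64 (0.12, adjusted p = 0.0506).

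**Figure D2:**
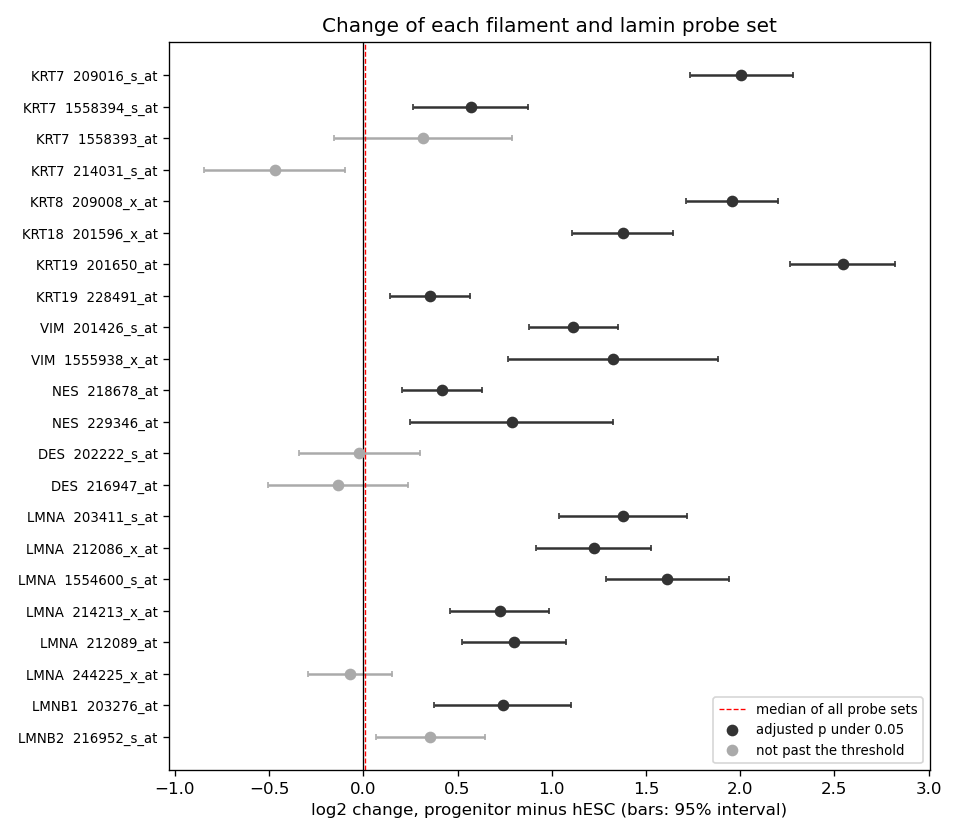
Log2 change (progenitor minus hESC) of each filament and lamin probe set with its 95% interval from the limma fit (black, adjusted p under 0.05; grey, not past the threshold; dashed line, median of all probe sets). The intervals of KRT19 201650_at (2.26 to 2.82), KRT7 209016_s_at (1.73 to 2.28) and KRT8 (1.71 to 2.20) lie farthest to the right.

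Markers of other keratin-bearing cells were measured alongside. Of 12 trophoblast genes the test called 3 higher and 2 lower, near the shares over all genes (25.3% higher and 20% lower). The summed intensities of the trophoblast genes were 3425 to 3822 in progenitors and 2125 to 2523 in hESC. The defining trophoblast markers ELF5, GCM1 and CGA averaged 9.40, 8.0 and 7.40 in progenitors and 9.90, 6.14 and 6.19 in hESC, near the low end of the scale in both groups. GATA3 and TFAP2A, transcription factors of that list that also act outside the trophoblast, rose by 5.11 and 4.19. CDX2, a factor of early trophoblast that is also active in posterior mesoderm, averaged 49.3 in progenitors and 2.69 in hESC and rose by 1.86. TFAP2C and HLA-G, the genes of the list that were called lower, fell by 0.66 and 0.42. With scaling on hybridization controls neither passed, at -0.14 and 0.03. Of 6 endoderm genes the test called 2 higher and 1 lower, and the defining marker SOX17 averaged 115 in progenitors and 9.89 in hESC. SOX17 was highest on progenitor array 1, which stood apart in endothelial markers (143, against 95.2 and 107 on progenitor arrays 2 and 3). FOXA2, also a defining marker, averaged 26.3 in progenitors and 16.03 in hESC and rose by 0.50, a call that was lost when its probe sets were averaged (0.12). Of 10 epithelial genes 8 fell, none rose and 2 did not pass, with summed intensities of 2753 to 3052 in progenitors and 17878 to 18596 in hESC. These genes include EPCAM, and the progenitors were sorted as cells without it, so that its low level there is no independent result. E-cadherin (CDH1), which holds epithelial cells together, fell by 2.67 (SE 0.08), whereas the simple keratins rose. The part of these cell types in the keratin levels was not tested.

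The other keratins were near the low end of the scale in both groups. Of 51 listed, 40 had a probe set of their own, of which 4 rose, 1 fell and 35 did not pass, with a median change of 0.16. Over all genes 25.3% were called higher and 20% lower. KRT10, a type I keratin of upper epidermis, was the exception in level, with 2042 in progenitors against 1597 in hESC on average, a log2 change of 0.43 (SE 0.09) that passed. The remaining 39 averaged under 100 in both groups, with 60.0 as the highest group mean. Among them the hair keratins KRT36 and KRT85 rose by 0.60 and 0.49 and the root sheath keratin KRT27 by 0.50, while KRT40 fell by 0.31. KRT40 lost its call without any of the 6 arrays in turn, and KRT27 and KRT36 without 5 and 4 of them. KRT27 also lost it with a pseudocount of 64 (0.17) and with the replicate number as a block (adjusted p = 0.0558). KRT31, KRT38, KRT75 and KRT79 were the brightest type I and type II keratins that did not pass, with differences of -0.18, 0.38, 0.18 and 0.07.

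Vimentin was bright in both groups and rose. VIM had 8607, 7969 and 8107 at 201426_s_at on the progenitor arrays, against 3612, 3699 and 4169 on the hESC arrays, and the log2 change was 1.11 (SE 0.10, limma adjusted p = 0.00015). All progenitor arrays exceeded the highest hESC array. The dimmer probe set 1555938_x_at had 71.2, 126 and 138 in progenitors and 36.1, 48.2 and 25.5 in hESC, a log2 change of 1.32 (SE 0.24). Progenitor array 1 was the lowest progenitor array at this probe set and the highest at the other, and without it the changes were 1.56 and 1.07.

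Nestin rose less. NES had 2632, 2574 and 2697 in progenitors and 2219, 2134 and 1885 in hESC at 218678_at, a log2 change of 0.42 (SE 0.09, limma adjusted p = 0.00806). The groups did not overlap, although the difference is a small share of the level. At 229346_at NES had 381, 355 and 265 in progenitors and 127, 197 and 230 in hESC, and the log2 change was 0.79 (SE 0.23, adjusted p = 0.0299). The hESC arrays spread widely at 229346_at, and its call was lost without hESC array 1 (0.55) or 2 (0.85) and without progenitor array 1 (0.70) or 2 (0.73), and also with a pseudocount of 1 (0.84, adjusted p = 0.0613). Nestin is also a marker of neural progenitors. Of 8 neural genes none rose, 3 fell and 5 did not pass, where 25.3% of all genes rose and 20% fell. Those that fell, SOX3, OTX2 and NEUROG1, averaged 421, 1385 and 80.8 in the undifferentiated hESC, against 32.6, 783 and 51.3 in progenitors. The defining markers PAX6 and SOX1 averaged 20.6 and 8.55 in progenitors and 15.2 and 5.72 in hESC.

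Desmin gave no call at either probe set. DES had 101, 87.2 and 104 in progenitors and 84.3, 106 and 116 in hESC at 202222_s_at, and the groups overlapped. The log2 difference was -0.02 with a 95% interval of -0.34 to 0.30. At 216947_at the values were 3.13 to 5.27 in progenitors and 2.11 to 11.6 in hESC, with a difference of -0.13 (interval -0.51 to 0.24). Over all genes 25.3% rose and 20% fell. Of 9 genes of heart and skeletal muscle 3 rose, none fell and 6 did not pass. Among them the atrial myosin light chain MYL7 rose by 4.02, and the difference from desmin was not tested. The atrial myosin heavy chain MYH6 averaged 33.5 in progenitors and 21.2 in hESC and rose by 0.51, a call that was lost without hESC array 2 or 3 or progenitor array 2 (0.40 to 0.48). The skeletal factor MYOD1 averaged 9.32 in progenitors and 4.05 in hESC.

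LMNA rose at 5 of its 6 probe sets. At the brightest, 203411_s_at, the progenitor arrays had 828, 599 and 634, against 242, 233 and 283 on the hESC arrays, and the log2 change was 1.38 (SE 0.14, limma adjusted p = 0.000287). Every progenitor array was far above the highest hESC array. The changes at 1554600_s_at and 212086_x_at were 1.61 and 1.22, and those at 212089_at and 214213_x_at were 0.80 and 0.72. The sixth, 244225_x_at, had 29.8, 31.3 and 34.8 in progenitors and 36.3, 37.6 and 40.3 in hESC, with a log2 difference of -0.07 (interval -0.29 to 0.15) that did not pass. After normalization the groups overlapped at that probe set. Which LMNA transcripts the probe sets read is not given in the sources used here.

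LMNA was highest on progenitor array 1 at each of the 5 probe sets that rose, by 0.11 to 0.40 on the log2 scale over the mean of the other progenitor arrays. At 203411_s_at this difference was 0.40, where 0.44 is the 95th percentile of the same difference over all probe sets. The LMNA probe set that did not pass, 244225_x_at, was instead lowest on progenitor array 1 (-0.10). Of the 10 endothelial genes, 9 also had their highest progenitor value on array 1, among them CDH5 with 1012 on array 1 against 102 and 121 on the others. Some of the 9 differed little between the progenitor arrays, and the share of all genes that were highest on array 1 was not computed. PECAM1, the exception, had 49.6 on array 1 and 42.6 and 51.5 on the others at its brightest probe set, where the groups overlapped (-0.01). On the mean of the PECAM1 probe sets the difference was 0.57 and did not pass. Without progenitor array 1 the LMNA changes were 0.68 to 1.503 and all 5 passed, so that the increase was present on progenitor arrays 2 and 3 alone. The part of endothelial cells in the height of array 1 was not tested.

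At the brightest probe set of each gene the B-type lamins moved less than LMNA. The LMNA changes at 214213_x_at (0.72) and 212089_at (0.80) were near that of LMNB1, and LMNA 244225_x_at did not pass (-0.07). LMNB1 had 2958, 3259 and 3210 in progenitors and 2111, 1591 and 2220 in hESC, a log2 change of 0.74 (SE 0.15, limma adjusted p = 0.00728). The groups did not overlap, and hESC array 2 was the lowest. LMNB2 had 1798, 1698 and 1765 in progenitors and 1569, 1231 and 1540 in hESC, and again hESC array 2 was the lowest. Its log2 difference of 0.36 (SE 0.12, interval 0.07 to 0.64) did not pass (adjusted p = 0.0539), although the groups did not overlap. LMNB2 passed under 9 of 19 alternatives, with adjusted p between 0.00211 and 0.0423, and over all 19 the range was 0.00211 to 0.136.

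The members were set against each other in 6 pairs, on the difference of their log2 values on each array at the brightest probe sets. In all 6 pairs the progenitor arrays lay apart from the hESC arrays, with an exact permutation p of 0.1, two-sided, which is the smallest that 3 arrays against 3 allow (0.1 after adjustment over the 6 pairs). The change of KRT8 exceeded that of KRT18 by 0.58 (95% interval 0.30 to 0.85) and fell short of that of KRT19, with a difference of -0.59 (-0.73 to -0.45). On the mean of its probe sets KRT19 instead changed less (1.45) than KRT8 (1.95). VIM changed less than KRT8, by a difference of -0.84 (-1.02 to -0.66), and more than NES, by 0.70 (0.33 to 1.06). At these probe sets KRT8 thus gained relative to VIM on every progenitor array. Those of KRT8 and KRT18 end in _x_at, so that differences with these genes are uncertain in the respect given above. The other VIM probe set rose by 1.32. LMNA changed more than LMNB1, by 0.64 (0.04 to 1.23), and LMNB1 more than LMNB2, by 0.38 (0.15 to 0.62). The LMNA difference was 0.99 on progenitor array 1, against 0.41 and 0.51 on the others, relative to the hESC mean, and without array 1 the difference was 0.47 (exact permutation p = 0.2).

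**Figure D3:**
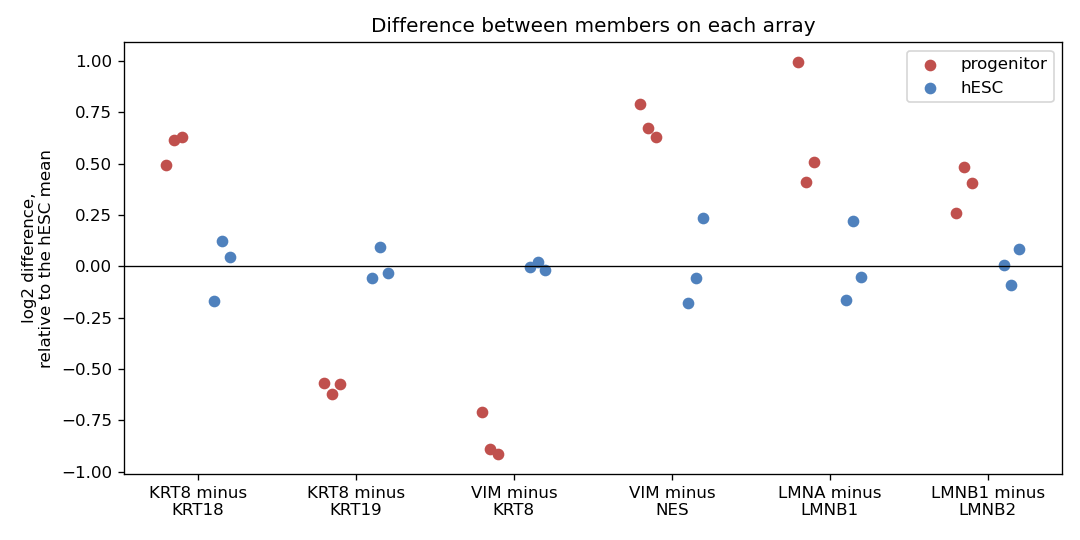
Difference between the log2 values of 2 members on each array, relative to the mean of the hESC arrays (red, progenitor; blue, hESC; brightest probe set of each gene). The 3 progenitor arrays lie on the same side of the hESC arrays in each of the 6 pairs, and LMNA minus LMNB1 is widest on progenitor array 1, at 0.99.

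By a rule set for likeness, the root mean square difference over the 6 arrays of log2 values centred on their own mean, KRT7 and KRT8 were the closest pair of members, at 0.055. Over all 19775 genes, SPIN4 (0.020) was nearest to KRT7, SOS2, a RAS exchange factor, to KRT8 (0.033), the mitochondrial kinase PINK1 to KRT18 (0.031) and LYPD6 to KRT19 (0.045). RNF11 was nearest to VIM (0.024), the remodeler CHD7 to NES (0.023), the lipid receptor S1PR3 to LMNA (0.044) and PET117 to LMNB1 (0.039). The next were CTBS, FZD4, ITFG1, CAMK2N1, ZNF71, PCDHGB6, NICOL1 and ENKD1 in the same order of members, at 0.026 to 0.051. These distances are a description of 6 arrays in 2 groups, with no test.

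NEFM, NEFL and INA fell, while SYNM and PRPH rose. Of 12 other filament genes 2 were called higher and 3 lower, with a median change of 0.03 against 0.04 over the brightest probe sets of all genes, of which 25.3% were called higher and 20% lower. The medium and light neurofilament genes NEFM and NEFL and alpha-internexin (INA), which form filaments in axons, fell by 1.21, 1.04 and 1.19. NEFH, the heavy neurofilament gene, did not pass at either of its probe sets, at 0.09 and -0.02. NEFM had 84.0, 99.95 and 106 in progenitors and 250, 277 and 206 in hESC. Another probe set of NEFL, 221801_x_at, which was dim, rose by 0.36. Synemin (SYNM), which joins desmin and vimentin filaments, rose by 0.66 (SE 0.12) and peripherin (PRPH) by 0.59 (SE 0.09). The lens protein gene BFSP1 and IFFO1 were the brightest that did not pass, at -0.03 and -0.15. The other IFFO1 probe set, 209721_s_at, was called lower (-0.35, adjusted p = 0.0139), and the mean of both passed (-0.25, adjusted p = 0.0214). With scaling on hybridization controls the signs of BFSP1 and IFFO1 turned.

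Transcripts of SUN2 and SYNE1 rose and those of SUN1 and SYNE2 fell. Of 22 genes of the lamina, the envelope and lamin processing 5 rose, 6 fell and 11 did not pass at their brightest probe sets, with a median of 0.02. These counts lie near the shares over all genes, of which 25.3% were called higher and 20% lower. Some of the genes that did not pass had other probe sets that did. SUN2, an inner membrane protein that binds lamins and reaches the cytoskeleton through nesprins, had 296, 308 and 327 in progenitors and 40.5, 44.4 and 26.5 in hESC. Its groups were far apart, and the log2 change was 2.67 (SE 0.13). Its relative SUN1 had 1477, 1394 and 1402 in progenitors and 2394, 2268 and 2138 in hESC and fell by 0.59 (SE 0.08). SUN1 was not called with scaling on hybridization controls (-0.14) or when its probe sets were averaged (-0.18), and of its dimmer probe sets 206487_at fell by 1.83 while 230210_at and 214169_at rose by 0.93 and 0.76.

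The nesprin genes SYNE1 and SYNE2, whose proteins span the outer nuclear membrane, also changed in opposite directions, while SYNE3 and SYNE4 did not pass, at 0.08 and 0.11. SYNE4 was called without progenitor array 1 (0.43, adjusted p = 0.0292). SYNE1 had 114, 109 and 106 in progenitors and 22.5, 20.6 and 13.1 in hESC, a log2 change of 1.91 (SE 0.11). Of its dimmer probe sets 232027_at rose by 0.73, while 244070_at (0.44), 215350_at (-0.03) and 244144_at (0.02) did not pass. SYNE2 had 296, 288 and 273 in progenitors and 790, 961 and 632 in hESC, and fell by 1.41 (SE 0.14) at 202761_s_at. The groups were apart for both genes, but the other 4 SYNE2 probe sets, all dimmer, did not pass, and at the brightest of them the difference was 0.31. LEMD3, which binds lamins and restrains SMAD signalling, fell by 0.86, and NRM, a membrane protein of the envelope, rose by 0.49. NRM lost its call without any of 5 arrays in turn. LBR, the lamin B receptor, and TMPO did not pass, at -0.12 and 0.16.

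Lamin precursors are farnesylated, trimmed and methylated. Of 5 genes for these steps FNTA, a farnesyltransferase subunit, rose by 0.39 (not called on the mean of its probe sets, at 0.19), and FNTB, the other subunit, fell by 0.90 from a dim probe set (16.4 in progenitors, 49.1 in hESC). RCE1 and ZMPSTE24, the proteases that trim the end of the precursor, fell by 0.70 and 0.54. ZMPSTE24, which completes the maturation of lamin A, had 1448, 1400 and 1390 in progenitors and 2147, 1991 and 2423 in hESC, while LMNA itself rose. With scaling on hybridization controls ZMPSTE24 and RCE1 did not pass, at -0.10 and -0.19. ICMT, the methyltransferase, did not pass, at -0.12.

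Plakins, the large linkers that tie filaments to junctions and to other cytoskeletal systems, fell in most cases. Of 7 measured 5 fell, 1 rose and 1 did not pass, with a median of -1.61. Over all genes 20% were called lower and 25.3% higher. Epiplakin (EPPK1), which binds keratin, had 35.7, 22.4 and 22.6 in progenitors and 600, 723 and 492 in hESC, and fell by 3.79 (SE 0.17). Its groups were far apart, and another EPPK1 probe set, 234555_at, which was dim, rose by 0.35. Periplakin (PPL), which links keratin to desmosomes, fell by 2.82 and dystonin (DST) by 2.18. Desmoplakin (DSP), which anchors keratin at desmosomes, rose by 0.65 (SE 0.16), with 1804, 2166 and 2152 in progenitors and 1350, 1721 and 1097 in hESC. DSP lost its call without hESC array 1 (0.64, adjusted p = 0.0535), progenitor array 2 (0.61) or progenitor array 3 (0.61). Envoplakin (EVPL) did not pass, at 0.03.

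**Figure D4:**
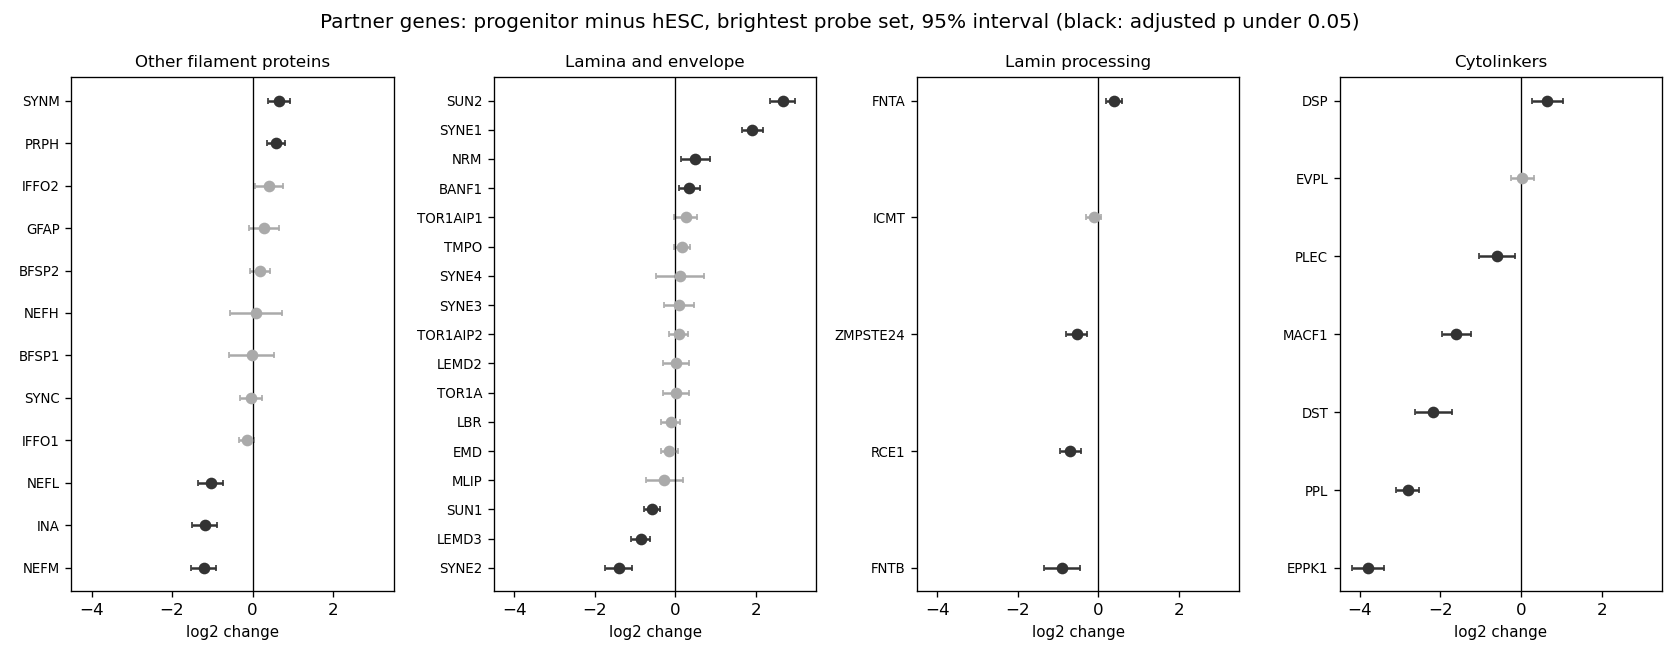
Log2 change (progenitor minus hESC, brightest probe set, 95% interval from limma) of other filament genes, lamina and envelope genes, lamin processing genes and cytolinkers (black, adjusted p under 0.05; grey, not past the threshold). SUN2 at 2.67 and SYNE1 at 1.91 lie to the right, and PPL at -2.82 and EPPK1 at -3.79 to the left.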

How the data were processed

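RNA of 3 progenitor and 3 hESC samples was hybridised to 6 one-colour arrays. The authors deposited linear intensities, judged from their range. How these were summarised, background-corrected and scaled is not given in the sources used here. Values equal to 1 made up 2.15%, and a few were lower. Of 54675 probe sets, 62 array controls were left out. Genes were named from the platform annotation, with 41043 symbols updated by gene identifier. Of the probe sets 41097 had 1 symbol, 1801 had several and 11777 had none.

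Values were converted to log2(intensity + 16), quantile-normalized and tested with limma 3.58.1 (lmFit, eBayes, R 4.3.3), two-sided, with no covariate and Benjamini-Hochberg adjustment over 54613 probe sets. The brightest probe set has the highest mean over the 6 arrays. The number of arrays limits precision. The fit was tested on simulated data. Figures used matplotlib 3.10.9 under Python 3.11.15. The members, lists, pairs, motifs and alternatives were chosen with earlier results of these data known. Genes outside the members are named by a rule: per list the 3 largest increases and decreases called and the 2 brightest not called, per member the 2 nearest genes, and defining cell type markers. Of the marker lists only the defining markers are named, besides GATA3, TFAP2A, TFAP2C, CDX2, HLA-G, MYL7, SOX3, OTX2 and NEUROG1. These, NEFH, SYNE3 and SYNE4 were chosen after their values were seen. Same-numbered arrays of the groups did not deviate together over all probe sets (correlations of -0.026, 0.055 and -0.056). These values cannot tell whether same-numbered samples were paired, and the test reported used no pairing.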

Additional observations from a re-analysis of the deposited data

How the results depend on the processing

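Of the 22 probe sets, 15 kept their direction and side of the threshold under every alternative that gave a value, among them the brightest of KRT7, KRT8, KRT18, KRT19, VIM, NES, LMNA and LMNB1. Those of KRT7, KRT8, KRT18, VIM and LMNA end in _x_at or _s_at, so leaving out such probe sets gave no value for them. KRT8, KRT18 and VIM then had no probe set left, and KRT7 kept only 1558393_at, which did not pass. The count of 16 higher was 9 of 10 genes with the brightest probe set or the mean of probe sets per gene, 6 without probe sets ending in _x_at or _s_at, which leaves fewer probe sets, and 14 to 17 when each array was left out. The count of 0 lower was 1 with an intensity trend, with robust variances, with a pseudocount of 1 or without normalization between arrays, and 0 to 1 when each array was left out (KRT7 214031_s_at). The replicate block changed the count of other keratins called lower to 0 (KRT40), and neither KRT27 (0.50, adjusted p = 0.0558) nor NES 229346_at (0.79, adjusted p = 0.0521) passed.

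Scaling on hybridization controls moved the median of all probe sets to 0.21, against 0.01, and the share of higher among called to 76.3%, against 50.4%. It gave 19604 higher and 6105 lower of all probe sets, against 11070 and 10903. It also gave 11 other keratins higher and 0 lower, 4 other filament genes higher, and 11 lamina genes higher and 3 lower. The signs that turned under it were those of DES 202222_s_at (0.40), LMNA 244225_x_at (0.19), BFSP1 (0.32), ICMT (0.36), IFFO1 (0.39), KRT31 (0.10), HLA-G (0.029), LBR (0.33) and PECAM1 (0.29). With 1 probe set per gene 5278 genes were higher and 4185 lower (5102 and 4052 on the mean of probe sets), and without _x_at and _s_at probe sets 6965 were higher.

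Other keratins called lower, 1 in the test reported, were 2 with the brightest probe set per gene or no normalization, and 0 when the dimmest 50% were left out (1 higher), with median centring, with progenitor arrays 2 and 3 averaged or with a pseudocount of 64. At an adjusted p under 0.01 the keratins were 2 higher and 0 lower, the lamina genes 2 higher and the cytolinkers 0 higher. Lamina genes higher were 3 with progenitor arrays 2 and 3 averaged or a pseudocount of 1, and cytolinkers higher were 0 with those arrays averaged. Leaving out each array gave 0 to 1 keratins lower, 3 to 5 lamina genes higher and 0 to 1 cytolinkers higher.

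Signs also turned for probe sets that had not passed: with median centring DES 202222_s_at (0.054) and BFSP1 (0.0096), without normalization EVPL (-0.048), KRT79 (-0.026) and ELF5 (-0.044), with a pseudocount of 1 ELF5 (-0.055), on the mean of probe sets ELF5 (-0.087) and PECAM1 (0.57), and with arrays 2 and 3 averaged PECAM1 (0.0036) and SYNE4 (-0.044). Without _x_at and _s_at probe sets another probe set stands for the gene, and they turned for SYNE2 (0.31) and CHD7 (-0.037), both called in the test reported, and for ICMT (0.19). Leaving out each array gave ranges that cross 0 for DES 202222_s_at (-0.15 to 0.086), DES 216947_at (-0.29 to 0.0041), BFSP1 (-0.31 to 0.18), EVPL (-0.064 to 0.11), NEFH (-0.19 to 0.25), SYNE3 (-0.072 to 0.24), SYNE4 (-0.047 to 0.43), KRT75 (-0.074 to 0.37), KRT79 (-0.072 to 0.18), ELF5 (-0.14 to 0.17), PAX6 (-0.011 to 0.44) and PECAM1 (-0.083 to 0.051). The cause of these turns was not tested.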

Other observations

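A probe set annotated to both SUPT20H and DES, 214027_x_at, belongs to no member by the rule. It had 57.7, 47.0 and 51.1 (deposited intensity) in progenitors and 44.5, 62.9 and 43.2 in hESC, and the groups overlapped.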
